A study of Cercocebus atys with 16 samples.

Results

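GFI1, PRDM1, the 5 Ikaros family genes IKZF1 to IKZF5, ZEB1 and ZEB2 encode zinc finger proteins that can act as repressors. They were followed in T cells of the double-negative kind, positive for CD3 but with neither CD4 nor CD8, from sooty mangabeys (Cercocebus atys). Every array probe whose gene name in the files was one of these symbols was taken, which gave 17 probes for the 9 genes, out of 43603 distinct probes and 11985 gene symbols. The genes were picked with their response to stimulation already known, so their stimulation values are a description, and calls of the fit over all probes are counted for them as a description too. Of the 17 probes, 16 passed the filter on dim probes, and the 1 that did not was 1 of the 3 probes for IKZF2.

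The stimulated cells of each animal had received antibodies to CD3 and CD28 for 4 hours (given in the labels as 3 mg/ml and 1 mg/ml), and the unstimulated cells of the same animal had not. All 4 animals, and so every sample, were infected with the simian immunodeficiency virus SIV. CD4 status was labelled low in FBR and FTV and normal in FNV and FKN. The cells were sorted from blood with magnetic beads, with CD4, CD8 and CD16 cells taken out and CD3 cells kept, to a purity above 98% per the labels, and were rested overnight.

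Each animal had 2 arrays with stimulated and unstimulated RNA in opposite dyes and 2 self-self arrays with 1 RNA in both dyes, 16 arrays in all. A response is the log2 ratio of stimulated over unstimulated signal on the ratio arrays, 1 value per animal, so n = 4. A level is the log2 intensity over the 4 channels that held that RNA. The arrays of FNV were scanned in an earlier batch than those of the other 3 animals, and 33.3% to 64.8% of their spots were well above background per channel, against 57.0% to 65.0% on the later arrays. The median SD of the response between animals was 0.16 over all 27493 tested probes, and the number of animals limits the precision. The T cell markers CD3D, CD3E, CD3G and CD2 were well above background in 16 of 16 stimulated and 16 of 16 unstimulated channels. CD247 was so in 15 stimulated and 16 unstimulated channels and CD5 in 12 and 16. The probe for CD4, a gene whose protein was used to deplete cells, was also above background in 16 of 16 channels of each condition.

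GFI1 binds DNA with C-terminal zinc fingers and brings the demethylase LSD1 to its targets through an N-terminal SNAG domain. PRDM1, also called Blimp-1, drives plasma cell differentiation in B cells and effector and exhausted states in T cells, and in mouse T cells it represses Il2. Ikaros proteins bind DNA with N-terminal fingers and pair with each other through C-terminal fingers. Ikaros, IKZF1, is found in lymphocytes with the NuRD complex, which joins a nucleosome remodeller to histone deacetylases. ZEB1 and ZEB2 recruit CtBP and bind E-box sequences, and ZEB2 is known from mouse CD8 T cells for its part in terminal effector differentiation.

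Within the Ikaros family 4 array probes lie over one and the same stretch of the related genes, and they are shown because a reader of the family's signals needs to see how alike the probed letters are. The sequences are those of the array's design, made on the rhesus macaque, a related species, and capitals mark the 26 bases that are the same in all 4 probes over the 40 aligned positions that all 4 cover. The Ikaros probe has no gene name in the files and is described there as IKAROS family zinc finger 1.
IKZF1 (A_01_P1761261): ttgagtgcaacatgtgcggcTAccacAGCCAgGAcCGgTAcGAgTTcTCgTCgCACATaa
IKZF2 (A_01_P1720461): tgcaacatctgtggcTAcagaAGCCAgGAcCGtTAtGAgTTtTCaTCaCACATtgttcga
IKZF3 (A_01_P1709701): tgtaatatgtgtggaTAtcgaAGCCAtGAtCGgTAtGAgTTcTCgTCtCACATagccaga
IKZF4 (A_01_P1732876): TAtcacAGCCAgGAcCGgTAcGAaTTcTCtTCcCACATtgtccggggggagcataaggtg
After the first 2 capitals comes a stretch of 4 bases not shared by all, and from AGCCA onward the runs of capitals are parted by single differing bases at a regular spacing of 3 bases. Aligned without gaps, the IKZF4 and Ikaros probes matched at 34 of 40 bases (85.0%), and the IKZF2 and IKZF3 probes matched the Ikaros probe at 43 of 55 bases each (78.2%). The IKZF2 and IKZF3 probes matched each other at 44 of 60 bases (73.3%), and each of these matched the IKZF4 probe at 33 of 45 bases (73.3%). All other pairs of probes for different genes in the set matched at 54.5% or less over at least 30 bases. Per the files these probes lie, on the rheMac2 build, at chr3:75951628-75951687 (minus strand) for Ikaros, chr12:76803394-76803453 (minus) for IKZF2, chr16:49866231-49866290 (minus) for IKZF3 and chr11:53088405-53088464 (plus) for IKZF4. Whether RNA of one paralog reached the probe of another was not tested. How far the measured responses of the 4 probes differed depended on the animal. In FBR they were -0.08 for the Ikaros probe, 0.53 for IKZF2, -1.16 for IKZF3 and 0.10 for IKZF4. In FNV they lay close together, at 0.05, -0.06, 0.08 and -0.10 in the same order. The IKZF2 probe was well above background there in 0 of 4 channels of each condition. In stimulated cells of FNV the IKZF3 probe was so in 2 of 4 channels and the IKZF4 probe in 0 of 4. The closeness in FNV is thus not read as a likeness of the genes.

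PRDM1 had the highest mean response of the 9 genes, 2.49 ± 0.61 on the log2 scale (SD, n = 4 animals), a 5.63-fold higher signal in stimulated cells. Its probe (A_01_P013278, chr4:102158058-102158117, plus strand) had levels of 10.45 in FNV, 11.23 in FKN, 11.11 in FBR and 11.99 in FTV in stimulated cells, against 8.94, 8.75, 8.59 and 9.03 in unstimulated cells of the same animals. Every stimulated level lay above every unstimulated one. The response was 1.63 in FNV, 2.64 in FKN, 2.63 in FBR and 3.07 in FTV, so FNV had the lowest of the 4, and without it the mean was 2.78 ± 0.25 (SD, n = 3).

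GFI1 followed closely and varied less between animals. Its first probe (A_01_P014956, chr1:95460422-95460481, minus strand) had levels of 11.38, 11.16, 11.42 and 11.96 in stimulated cells of FNV, FKN, FBR and FTV, against 9.30, 8.77, 9.29 and 9.82 in their unstimulated cells. Here too the 2 conditions did not overlap. Its response was 2.26 in FNV, 2.54 in FKN, 2.24 in FBR and 2.19 in FTV, a mean of 2.31 ± 0.16 or 4.95-fold. The second probe (A_01_P1796491, chr1:95460790-95460849, minus strand) gave 2.26, 2.44, 2.26 and 2.19 in the same animals, a mean of 2.28 ± 0.11, and likewise did not overlap between conditions. The means of PRDM1 and GFI1 differed by less than the SD of PRDM1 between animals. The share of all tested probes with every stimulated level above every unstimulated one was 7.93%, and the share with every stimulated level below was 8.49%; since the genes were chosen on this contrast, nothing is read from the 3 member probes without overlap.

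**Figure D1:**
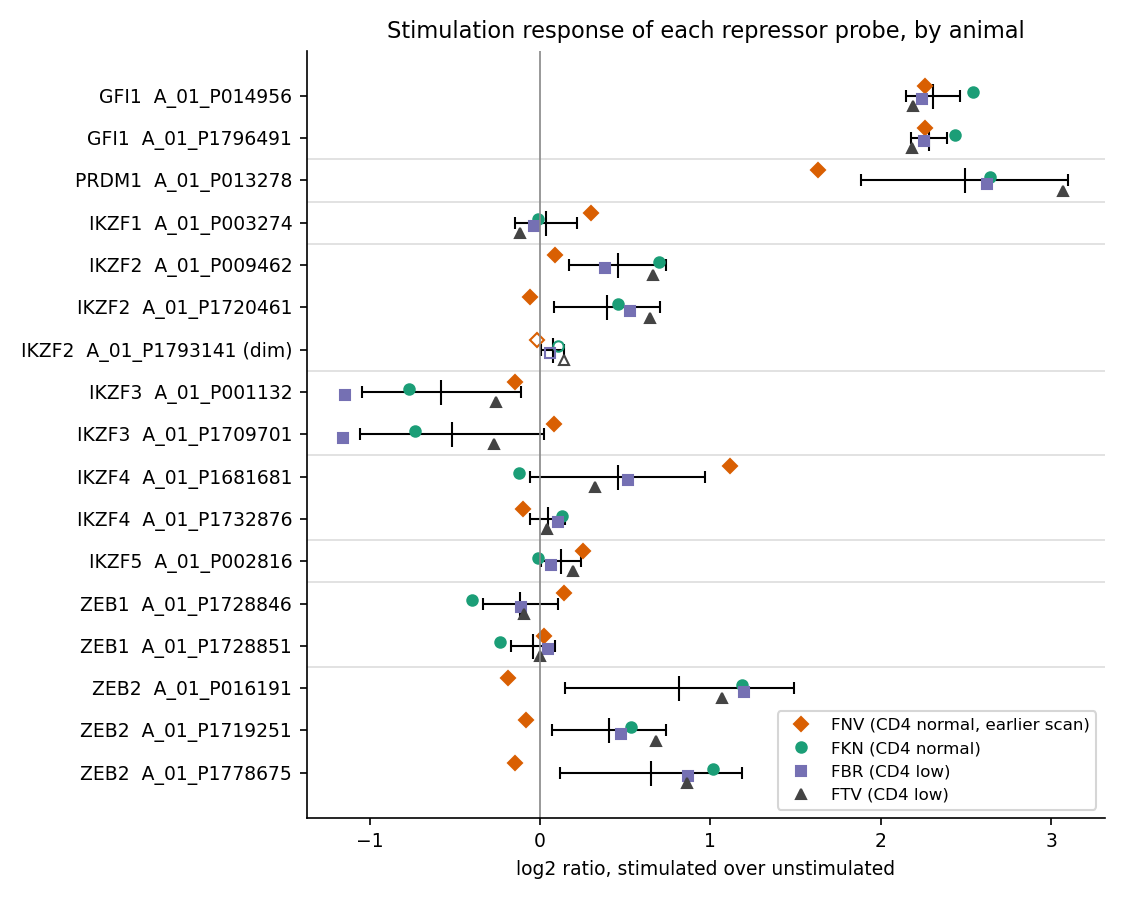
Response of each of the 17 probes, as the log2 ratio of stimulated over unstimulated signal (x axis). Points are the 4 animals, the vertical tick is their mean and the bar 1 SD; open points mark the IKZF2 probe that was too dim to be tested. All points of GFI1 and PRDM1 lie between 1.63 and 3.07, and the FNV points of ZEB2 lie apart from the other 3 animals.

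ZEB2 had a positive response in 3 of the 4 animals. The probe A_01_P016191 (chr12:7919969-7920028, minus strand) had levels of 10.28 in FNV, 9.99 in FKN, 9.86 in FBR and 11.00 in FTV in stimulated cells, against 10.47, 8.89, 8.69 and 10.002 in unstimulated cells. FNV had the highest unstimulated level of the 4 animals and was the only 1 in which the stimulated level was the lower. The response was -0.19 in FNV, 1.19 in FKN, 1.20 in FBR and 1.07 in FTV, with a mean of 0.82 ± 0.67 over 4 animals and 1.15 ± 0.07 over the 3 without FNV.

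The other ZEB2 probes showed the same split between animals. A_01_P1778675 (chr12:7920527-7920586, minus strand) gave -0.15 in FNV, 1.01 in FKN, 0.87 in FBR and 0.86 in FTV. Its unstimulated level was again highest in FNV, at 9.08 against 7.15, 7.08 and 7.95 in FKN, FBR and FTV. A_01_P1719251 (chr12:7931155-7931899, minus strand, an interval longer than the probe) gave -0.08, 0.53, 0.48 and 0.68 in the 4 animals. Its level in FNV was not the highest, at 6.83 against 6.82, 6.91 and 7.31 in unstimulated cells, and it was well above background in 1 of 4 stimulated and 3 of 4 unstimulated channels of that animal.

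ZEB1, the paralog of ZEB2, showed no response beyond the spread between animals at either probe. A_01_P1728846 (chr9:31699950-31700009, plus strand) gave 0.14 in FNV, -0.40 in FKN, -0.11 in FBR and -0.10 in FTV, a mean of -0.11 ± 0.22. A_01_P1728851 (chr9:31706027-31706086, plus strand) averaged -0.04 ± 0.13. Both were well above background in 16 of 16 channels of each condition.

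IKZF3, which encodes Aiolos, had the lowest mean response of the 9 genes. The probe A_01_P001132 (chr16:49865802-49865861, minus strand) had levels of 8.18 in FNV, 10.38 in FKN, 10.18 in FBR and 11.14 in FTV in stimulated cells, against 8.38, 11.18, 11.33 and 11.43 in unstimulated cells. FNV lay far below the other animals in both conditions. The response was -0.14 in FNV, -0.77 in FKN, -1.14 in FBR and -0.26 in FTV, all below 0 with a mean of -0.58 ± 0.46. The finger probe A_01_P1709701 gave 0.08, -0.73, -1.16 and -0.27 in the same animals, a mean of -0.52 ± 0.54, and its unstimulated level was 6.94 in FNV against 11.05, 11.02 and 11.34 in the others. On that probe FNV was well above background in 2 of 4 stimulated channels, so its small response there sits near the dim end of the scale.

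IKZF1, Ikaros itself, was bright and differed little between the conditions. Its named probe (A_01_P003274, chr3:75947680-75947710, minus strand) had levels of 12.18, 11.90, 11.70 and 11.58 in stimulated cells of FNV, FKN, FBR and FTV, against 11.96, 11.91, 11.76 and 11.73 in unstimulated cells. The levels overlapped, and the response was 0.30 in FNV, -0.01 in FKN, -0.03 in FBR and -0.12 in FTV, a mean of 0.03 ± 0.18. A further 3 probes that the files describe as Ikaros, but give no gene name, averaged -0.06 ± 0.34 (A_01_P1690371), -0.07 ± 0.30 (A_01_P1761256) and 0.02 ± 0.07 (A_01_P1761261). On the first of these FNV stood at 0.44 and the other 3 animals between -0.32 and -0.18.

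IKZF2, which encodes Helios, a factor known from regulatory T cells, was dim. The probe A_01_P009462 (chr12:76802626-76802685, minus strand) had levels of 6.56 in FNV, 7.45 in FKN, 7.04 in FBR and 7.38 in FTV in stimulated cells, against 6.56, 6.84, 6.64 and 6.79 in unstimulated cells. It was well above background in 12 of 16 channels of each condition, and in none of the channels of FNV. The response was 0.09 in FNV, 0.70 in FKN, 0.38 in FBR and 0.66 in FTV, a mean of 0.46 ± 0.28. The finger probe A_01_P1720461 had the same detection and gave -0.06, 0.46, 0.53 and 0.65, a mean of 0.39 ± 0.31. The probe A_01_P1793141 (chr12:76801317-76801376, minus strand) was above background in 0 of 16 channels of either condition, so no value of it is read as a response. The size of the IKZF2 response differed between sources of the ratio: the scanner software's own ratios, with another background and dye treatment, gave 1.38 for A_01_P009462 and 1.19 for A_01_P1720461, and the authors' deposited table gave a mean of 1.10 for A_01_P009462. Leaving out the background correction alone gave 0.52 and 0.43, and the cause of the larger values was not tested.

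IKZF4, which encodes Eos, gave different values on its 2 probes. A_01_P1681681 (chr11:53089870-53089929, plus strand) had levels of 9.64, 9.62, 9.44 and 9.62 in stimulated cells of FNV, FKN, FBR and FTV, against 8.54, 9.87, 8.93 and 9.33 in unstimulated cells. The stimulated levels lay close together and the unstimulated ones did not, so the response ran over 1.11 in FNV, -0.12 in FKN, 0.52 in FBR and 0.32 in FTV, with a mean of 0.46 ± 0.51. The finger probe A_01_P1732876 was dimmer, above background in 12 of 16 stimulated and 15 of 16 unstimulated channels, and averaged 0.04 ± 0.10. IKZF5, which encodes Pegasus, averaged 0.12 ± 0.12 (A_01_P002816, chr9:122586973-122587032, minus strand), with levels of 9.12 to 9.39 in stimulated cells and 9.005 to 9.22 in unstimulated cells.

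**Figure D2:**
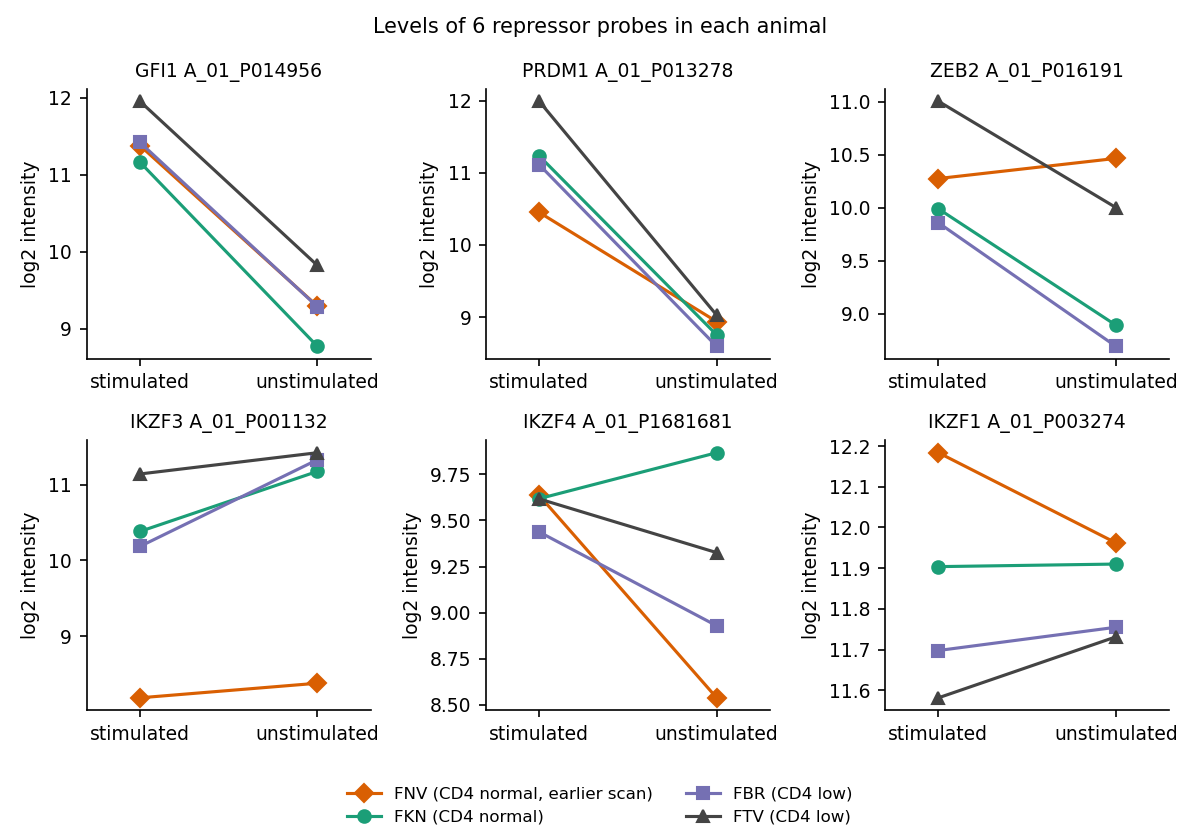
Level of 6 probes as log2 intensity (y axis, scaled to each probe), with stimulated cells at the left and unstimulated cells at the right of each panel; each line joins the 2 conditions of 1 animal. GFI1 and PRDM1 do not overlap between conditions, ZEB2 in FNV starts from the highest unstimulated level, 10.47, and IKZF3 in FNV lies at 8.18 and 8.38 while the other animals lie above 10.

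In limma's fit over all 27493 tested probes, at an adjusted p under 0.05, 40.3% were called, 19.9% higher and 20.4% lower in stimulated cells. Among the 16 tested probes of the set 4 were called, all of them higher: both GFI1 probes, the PRDM1 probe and IKZF2 A_01_P009462. Since the genes were chosen on this contrast, nothing is read from that count. It was 10 without FNV and 3 without any 1 of the other animals. Without FNV the IKZF2 finger probe and all 3 ZEB2 probes were also called higher, and both IKZF3 probes lower. Of all 27493 probes 14074 were called without FNV, and 5796 to 7130 without any 1 of the other animals. With scan batch as a term the member count was 9, beside 11112 of all probes. This term cannot be told apart from the animal FNV. That fit takes its residual spread from the other animals alone. Its tested value lies midway between FNV and the mean of the others, at 0.48 for ZEB2 A_01_P016191.

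FNV also differed from the other animals in markers of other blood cells. The summed intensity of 7 monocyte markers was 36109 in stimulated and 106371 in unstimulated cells of FNV, against 3931 to 6278 in stimulated and 5052 to 10385 in unstimulated cells of the other 3 animals. All 7, CD14, LYZ, CSF1R, VCAN, FCN1, S100A8 and S100A9, were detected in most channels, and MARCO in 0 of 16 channels of each condition. The summed level of 4 B cell markers was 2382 in stimulated and 13504 in unstimulated cells of FNV, against 759 to 1018 and 2211 to 3689 in the others. Dendritic cell markers (3 genes) summed to 1634 and 5423 in FNV, against 396 to 626 and 461 to 742, and CLEC9A was detected in 0 of 16 channels of each condition. Markers of T cells (6 genes) were lowest in FNV, at 78152 in stimulated and 52305 in unstimulated cells, against 102469 to 129626 and 85678 to 87230 in the others. Plasma cell markers (2 genes) summed to 2094 and 3175 in FNV, against 205 to 256 and 228 to 301, whereas markers of erythrocytes and platelets (4 genes) were lowest there, at 6416 and 5707 against 20841 to 35430 and 27499 to 46044. Of the plasma cell markers, IGJ was well above background in 16 of 16 channels of each condition. TNFRSF17 was so in 2 of 16 stimulated and 16 of 16 unstimulated channels.

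The monocyte and B cell lists moved with stimulation as well. Of the 7 monocyte markers 4 fell and 3 were not called, with a median response of -0.87, and the median was -1.46 in FNV, -0.80 in FKN, -0.46 in FBR and -0.80 in FTV. Of the 4 B cell markers 3 fell, with a median of -1.13. Over all gene symbols with 1 probe each, 24.6% fell. ZEB2 is known in myeloid cells and IKZF3 in B cells, and the part of other cells in their values was not tested. FNV had the highest monocyte and B cell marker sums. Its unstimulated IKZF3 level on A_01_P001132 was the lowest, at 8.38 against 11.18 to 11.43 in the other animals. In RNA of a whole sample, fewer cells of a type and less RNA per cell cannot be told apart. Without FNV, the response of ZEB2 A_01_P016191 was 1.15 ± 0.07 and that of IKZF3 A_01_P001132 was -0.72 ± 0.44 (SD, n = 3). FTV stood apart in another list. Its 4 natural killer cell markers summed to 8748 in stimulated and 5113 in unstimulated cells, against 507 to 639 and 486 to 644 in the other animals. The 4 genes did not move together in FTV, with responses of 0.98 for KLRD1, -0.06 for NCAM1, -0.02 for KLRF1 and 0.03 for NCR3. KLRF1 was well above background in 6 of 16 channels of each condition. The part of this list in the FTV values was not tested either.

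**Figure D3:**
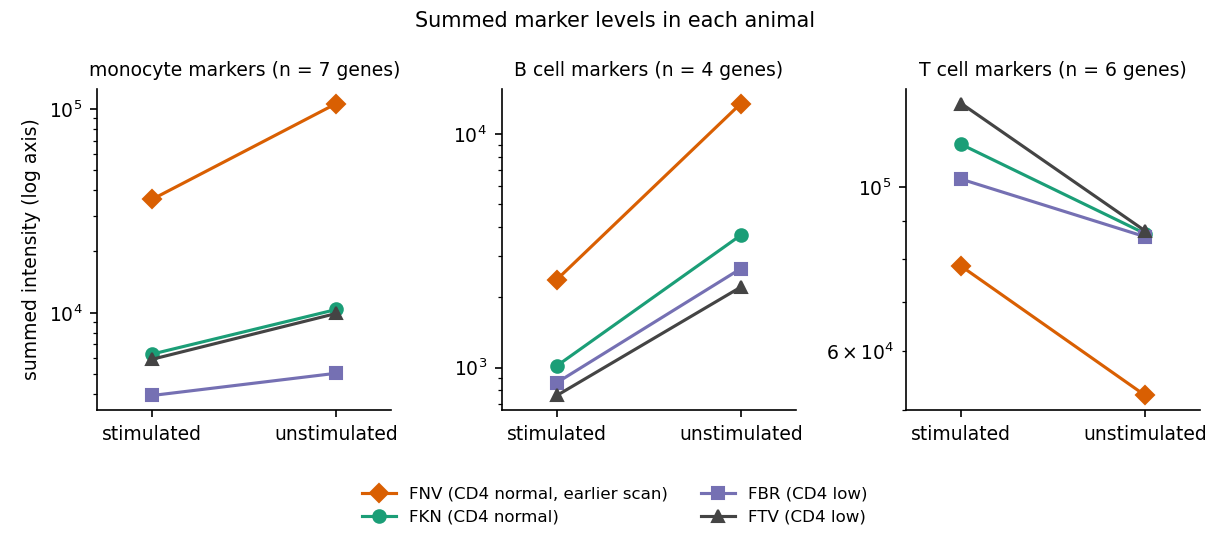
Summed linear intensity of monocyte, B cell and T cell markers in each animal (y axes logarithmic), with stimulated cells at the left and unstimulated cells at the right; each line is 1 animal. FNV has the highest monocyte and B cell sums and the lowest T cell sums in both conditions.

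The CD4 status of the animals was not used to choose the genes, and low minus normal was tested with limma on the response, on the unstimulated level and on the stimulated level, 2 animals against 2. No probe of the set passed an adjusted p of 0.05 in any of the 3 tests (0 of 16 each), and 0 of 16 had an unadjusted p under 0.05. The background was 0% of all tested probes called in each test, and 2.16%, 1.64% and 2.07% at an unadjusted p under 0.05 for response, unstimulated level and stimulated level. Adjusted p over the members was 1.00 for the response, 0.834 to 0.988 for the unstimulated level and 0.836 to 0.958 for the stimulated level.

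For PRDM1 the response averaged 2.85 in the CD4-low animals and 2.14 in the CD4-normal ones. The difference of 0.71 (95% interval -0.32 to 1.75) was the largest of the set. The CD4-normal mean joins 1.63 in FNV with 2.64 in FKN, and FKN was close to the CD4-low animal FBR at 2.63. FNV, from the earlier scan batch, is in the CD4-normal group in all these tests. For GFI1 A_01_P014956 it averaged 2.22 in CD4-low and 2.40 in CD4-normal animals, a difference of -0.19 (95% interval -0.59 to 0.22). For ZEB2 A_01_P016191 it averaged 1.14 in CD4-low and 0.50 in CD4-normal animals, a difference of 0.64 (-0.64 to 1.91), and the CD4-normal mean joins 1.19 in FKN with -0.19 in FNV. The intervals are wide and do not show that the responses are alike.

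The largest differences in level were those of IKZF3. Its unstimulated level on A_01_P001132 averaged 11.38 in the CD4-low animals and 9.78 in the CD4-normal ones, a difference of 1.60 (95% interval -0.89 to 4.10). On A_01_P1709701 the means were 11.18 and 8.99, a difference of 2.18 (-1.44 to 5.81). FKN, the other CD4-normal animal, had unstimulated levels of 11.18 and 11.05 on the 2 probes, close to the CD4-low animals. Without FKN, which leaves FNV as the lone CD4-normal animal and assumes that it varies as the others do, the stimulated level of A_01_P1709701 passed, with a difference of 3.57 (adjusted p = 0.0459 in limma's fit). In that setting 4054 of all probes passed, and FNV's scan batch and its CD4 status cannot be told apart there.

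The genes whose 4 per-animal responses lay closest to those of PRDM1 were DUSP5, a phosphatase of ERK kinases, at a root mean square difference of 0.20, UCK2, a uridine-cytidine kinase, also at 0.20, and KCNK5, a potassium channel, at 0.28. DUSP5 had responses of 1.65 in FNV, 2.39 in FKN, 2.53 in FBR and 3.36 in FTV, lowest in FNV and highest in FTV as for PRDM1. Closest to IKZF3 A_01_P001132 were LGR5 at 0.15, SMC2, a condensin subunit, at 0.17 and FAM43A at 0.18. These are likenesses over 4 animals only.

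Genes that work with the repressors were read from 6 lists of 93 genes in all, of which 63 were tested; the lists were drawn up with earlier results of this contrast known, so their counts and adjusted p-values are not independent evidence. In stimulated cells 20 of these rose and 15 fell at an adjusted p under 0.05, and 28 were not called. Over all gene symbols 22.4% rose and 24.6% fell. The median response of the 63 genes was 0.16, against -0.01 for all gene symbols. The count of 35 called genes was 42 without FNV and 26 to 27 without any 1 of the other animals. Calls over all probes moved as well, from 11082 to 14074 without FNV and to 5796 to 7130 without any 1 of the others.

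Among factors that act on the PRDM1, GFI1 or Ikaros genes, 5 of 8 rose and none fell, with a list median of 0.64. IRF4, an activator of PRDM1 in lymphocytes, had responses of 1.76 in FNV, 1.79 in FKN, 2.28 in FBR and 2.40 in FTV, a mean of 2.06 ± 0.33 (limma, adjusted p = 0.000704). STAT5A, which carries cytokine signals, rose by 1.96 ± 0.26 (limma, adjusted p = 0.000598). BACH2, a repressor of PRDM1, rose by 0.68 ± 0.44, with 0.14 in FNV and 1.08 in FTV (limma, adjusted p = 0.0285). BCL6, which in B cells and follicular helper T cells is set against PRDM1, had a response of 0.41 ± 0.41, highest in FNV at 0.92 and lowest in FBR at 0.03, and did not pass (limma, adjusted p = 0.0972).

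Among genes that members of the set repress in lymphocytes, 5 of 9 rose and 1 fell, with a median of 0.47. IFNG, the gene of interferon gamma, rose by 5.51 ± 0.70 and was higher in 4 of 4 animals (limma, adjusted p = 0.000527). IL2, the T cell growth factor gene, which PRDM1 and Ikaros repress in mouse T cells, rose by 4.58 ± 1.58, with the lowest response, 2.99, in FKN (limma, adjusted p = 0.00359). IL7R, the interleukin 7 receptor gene and a GFI1 target in mouse T cells, fell by 0.72 on the log2 scale, with an SD of 0.25 (limma, adjusted p = 0.00513). IFNG and IL2 were higher in the same stimulated samples in which the probes for PRDM1 and GFI1 were higher. Over all gene symbols 22.4% rose in this contrast, and whether the members acted on IFNG or IL2 was not tested.

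The corepressors split in both directions. Of 10 tested NuRD subunits 1 rose, the remodeller CHD4 with 1.03 ± 0.17 (limma, adjusted p = 0.000980), and 1 fell, MTA2 with -0.46 ± 0.17, while 8 were not called and the median was 0.01. Of 16 other corepressors 5 rose and 6 fell, with a median of -0.20. SUV39H2, a histone H3 lysine methyltransferase, rose by 1.85 ± 0.49 and PRMT5, an arginine methyltransferase known to partner Blimp-1, by 1.22 ± 0.23. The Groucho family corepressors TLE4 and TLE1 fell, with responses of -1.07 ± 0.10 and -0.84 ± 0.03. KDM1A, which encodes the LSD1 that GFI1 recruits, rose by 0.44 ± 0.31, with 0.01 in FNV (limma, adjusted p = 0.0421). CTBP1, a partner of ZEB proteins, fell by 0.32 on the log2 scale, with an SD of 0.16 (limma, adjusted p = 0.0253). CTBP2, the other CtBP gene of the list, was not called, with -0.21 ± 0.59 (limma, adjusted p = 0.489).

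Of 8 tested genes for the turnover and phosphorylation of Ikaros proteins 2 rose and 3 fell, with a median of -0.03. CSNK2A1, a catalytic subunit of casein kinase 2, which phosphorylates Ikaros, rose by 0.80 ± 0.19, and DDB1, of the cullin 4 ubiquitin ligase, by 0.46 ± 0.28. Within the same ligase the scaffold CUL4B and the receptor CRBN, through which thalidomide analogues lead to degradation of Ikaros and Aiolos, fell, with responses of -1.04 ± 0.12 and -0.72 ± 0.13 (limma, adjusted p = 0.000671 and 0.00159). Of 14 related zinc finger repressors 2 rose and 4 fell, with a median of 0.04. ZBTB32, also known as PLZP, rose by 1.69 ± 0.39 and PRDM15 by 1.44 ± 0.36. SNAI3, a SNAG-domain repressor like GFI1, fell in 4 of 4 animals with a response of -2.37 ± 0.24, and PRDM2 fell with -1.21 ± 0.26 (limma, adjusted p = 0.000487 and 0.00132).

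**Figure D4:**
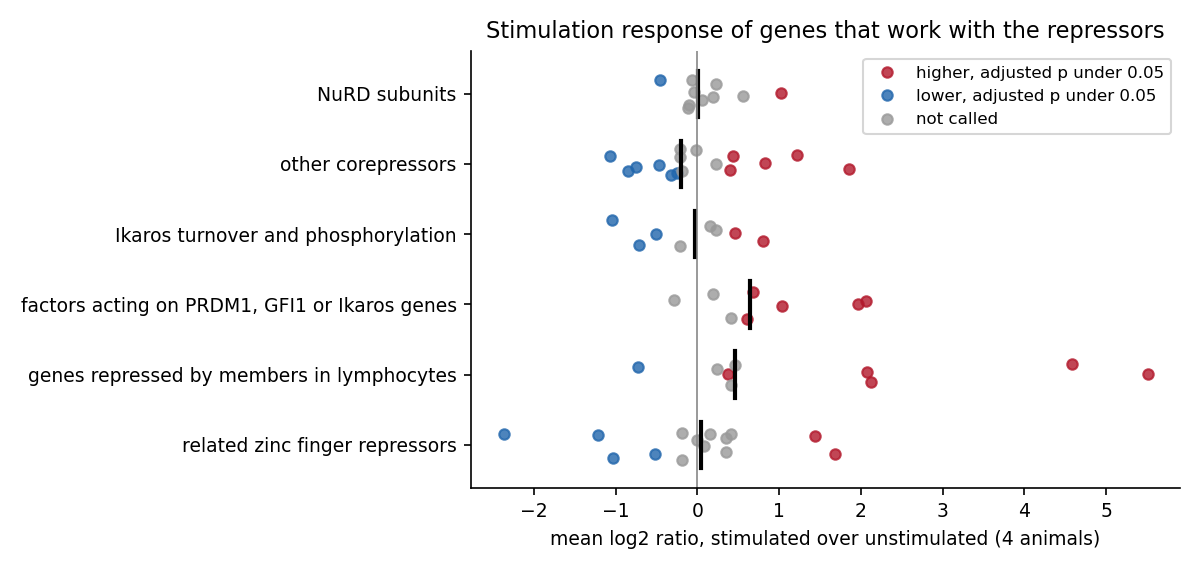
Mean response over 4 animals (x axis, log2 ratio of stimulated over unstimulated) of the tested genes in 6 lists of partners, regulators, targets and relatives of the repressors. Each point is 1 gene, red and blue mark an adjusted p under 0.05 in limma's fit, and the black bar is the list's median; IFNG and IL2 lie farthest to the right, at 5.51 and 4.58, and SNAI3 farthest to the left, at -2.37.

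The responses could be set against arrays that the ratios did not use. On the self-self arrays, where stimulated and unstimulated RNA lay on different arrays, PRDM1 differed by 1.40 in FNV, 2.32 in FKN, 2.41 in FBR and 2.86 in FTV, a mean of 2.25 ± 0.61. GFI1 averaged 2.06 ± 0.14 and 1.89 ± 0.15 on its 2 probes. ZEB2 A_01_P016191 differed by -0.19 in FNV and by 1.01, 1.13 and 0.93 in FKN, FBR and FTV, so FNV stood apart on these arrays too. The self-self arrays hold RNA of the same animals, so they repeat the measurement and not the experiment. On IKZF3 A_01_P001132 the dye orientations differed in sign in FNV, at -0.49 with stimulated RNA in Cy5 and 0.20 with it in Cy3, while the other 3 animals were below 0 in both.

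The authors' deposited table listed means of 2.66 for PRDM1, 2.49 for GFI1 and 0.97 for ZEB2 over the 4 animals; the GFI1 value is listed under an accession that both GFI1 probes share, and the ZEB2 value under one that A_01_P016191 and A_01_P1778675 share. For IKZF3 the authors' deposited table held no value for FNV, and for the other animals it listed -0.78 in FKN, -1.20 in FBR and -0.30 in FTV on A_01_P001132. For IKZF4 A_01_P1681681 the authors' deposited table listed 1.42 in FNV against -0.12 to 0.54 in the others.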

How the data were processed

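Gene expression was measured on 16 Agilent arrays with 2 colours, 4 for each of 4 animals, with Cy3 in channel 1 and Cy5 in channel 2 per the labels. The authors deposited spot and background intensity per array, which per the file headers came from version 10.7.3.1 of Agilent Feature Extraction. The same deposited files hold the software's log10 ratio of red over green after its own background subtraction and dye normalisation, used as an alternative. The authors' deposited table gives a log2 ratio per animal; how background and centring were handled there stayed unknown, and its columns correlated across features with the ratios below at 0.80 to 0.89, in the same direction. On 1 FNV ratio array the title and a channel characteristic name opposite conditions; the title was followed.

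Signals were corrected by normexp (offset 50) and loess in limma 3.58.1 (R 4.3.3, statmod 1.5.0, version 1.17.8 of data.table; figures with Python 3.11.15 and matplotlib 3.10.9), with control and outlier spots at weight 0. At most 51 outlier spots per array were left out, and 0 spots were saturated. Each animal's pair of ratio arrays gave 1 mean, and levels used Aquantile normalisation. A probe was tested where, in at least 2 animals, the channel of one condition was flagged well above background on the pair of ratio arrays. limma's lmFit and eBayes tested each of 27493 probes with Benjamini-Hochberg adjustment over all of them, and the procedure was tested on simulated data. Gene names came from the newer of 2 annotation editions, which differ at 8125 of 43803 spots. The number of animals, not a count, sets the precision.

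The members and the gene lists were chosen with earlier results of these data known. Named in the text are all member probes, and BCL6, BACH2 and IRF4. From each list came up to 2 called genes with the highest and 2 with the lowest response. The 3 genes nearest in response are named for the members with the largest response in each direction. KDM1A, CTBP1 and CTBP2 were named after their values were seen. The labels do not say whether the RNA of an animal came from separate cultures. Stimulated and unstimulated RNA of an animal are paired by its name, and the ratio arrays carry this pairing. Alternatives were other background and normalisation settings, no filter, 1 probe per symbol, single dye orientations, the self-self arrays with and without the animal as a replicate block, scan batch as a term, and leaving out each animal.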

Additional observations from a re-analysis of the deposited data

Results flagged for a closer look

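In 48 groups of 4 animals (the response, the stimulated level and the unstimulated level of the 16 tested probes), 5 held 1 animal farther from the rest than Dixon's 95% critical value for the gap over the range allows. Chance gives such a gap in about 1 group in 20, and the probes of a gene are not independent. The ZEB2 response in FNV was -0.19 on A_01_P016191, against 1.07 to 1.20 in the other animals, and -0.15 on A_01_P1778675, against 0.86 to 1.01. The unstimulated level of IKZF3 in FNV was 8.38 on A_01_P001132, against 11.18 to 11.43 in the others, and 6.94 on A_01_P1709701, against 11.02 to 11.34. The stimulated level of IKZF4 on A_01_P1681681 was 9.44 in FBR, against 9.62 to 9.64 in the others, a narrow range. FNV also had the highest monocyte and B cell marker sums and its own scan batch; their part in these values was not tested.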

How the results depend on the processing

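The count of 4 called member probes became 8 with the scanner software's ratios, 7 with the self-self arrays and the animal as a replicate block (3 without the block), 7 with only the arrays that had stimulated RNA in Cy5 and 9 with scan batch as a term; leaving out 1 animal gave 3 to 10, the highest without FNV. The count of 35 called companion genes became 21 with median centring and 14 on the self-self arrays with no replicate block; leaving out 1 animal gave 26 to 42. Of all probes 11082 were called, against 4851 with median centring, 2254 on the self-self arrays with no replicate block, 5796 without FKN, 6244 without FBR, 7130 without FTV and 14074 without FNV. With the scanner software's ratios 12081 of all probes were called, and 8334 on the self-self arrays with the replicate block. With stimulated RNA in Cy5 alone 11145 were called, and 11112 with scan batch as a term. The CD4 tests called 0 members, except 1 (IKZF3) for the stimulated level without FKN, a range of 0 to 1 over animals left out. Of 216 alternative values of single probes 199 moved by less than 1 SD between animals, 17 moved by more and 0 reversed a called direction. The mean response ran from 2.21 to 2.78 for PRDM1, from 2.06 to 2.49 for GFI1 A_01_P014956, from 0.48 to 1.15 for ZEB2 A_01_P016191, from -0.72 to -0.39 for IKZF3 A_01_P001132 and from 0.33 to 1.38 for IKZF2 A_01_P009462. The causes of these shifts were not tested. Weak signal over background limits both tested IKZF2 probes, which were not well above background in FNV. It also limits IKZF3 A_01_P1709701, IKZF4 A_01_P1732876 and ZEB2 A_01_P1719251 in FNV. There the IKZF4 probe was well above background in 0 of 4 stimulated channels and the ZEB2 probe in 1 of 4. The mean response of that IKZF4 probe was -0.09 with stimulated RNA in Cy5 and 0.17 with it in Cy3.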
